A study of Arabidopsis thaliana with 5 samples.

Results

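The 10 core circadian clock genes of Arabidopsis were taken by locus, namely CCA1 (AT2G46830), LHY (AT1G01060), PRR9 (AT2G46790), PRR7 (AT5G02810), PRR5 (AT5G24470), TOC1 (AT5G61380), GI (AT1G22770), ELF3 (AT2G25930), ELF4 (AT2G40080) and LUX (AT3G46640, PCL1 in the annotation). They are 10 of 33056 annotated genes on chromosomes 1 to 5, and every peak within 2 kb of either end of each gene was listed. The ChIP-Seq experiment mapped where SCL28, a GRAS transcription factor that the study connects to cell size, and AtSMOS1, the AP2-type factor it works with, sit on chromatin. Both GFP lines were in the Col-0 ecotype, labelled E1M-GFP for SCL28-GFP and SNOS1-GFP for AtSMOS1-GFP, with anti-GFP antibody and 2 replicates each, and total chromatin of Col-0 wild type (WT) gave 1 input sample without antibody. The sources differ on the growth of the whole seedlings, a point that bears on clock genes: the labels give long days of 16 h light at 20 °C and 8 h darkness at 18 °C, whereas the general methods of the study give continuous light. AtSMOS1-GFP was expressed from its own promoter, whereas the promoter of the SCL28-GFP line is given in one place as that of RPS5A and in another as that of SCL28. The time of day of harvest is not given in the sources used here. The replicates are described by the study as biological, and no line expressing GFP alone was among the samples used here.

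The plant clock is a loop of repressors that act at different times of day. CCA1 and LHY are related MYB factors of the morning, which repress evening genes through a promoter sequence called the evening element. The pseudo-response regulators PRR9, PRR7, PRR5 and TOC1 follow one another from morning to night and repress CCA1 and LHY. GI is a large evening protein that works with light-sensing F-box proteins to control the stability of TOC1, and ELF3, ELF4 and LUX form the evening complex, in which LUX is the part that contacts DNA.

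AtSMOS1 peaks lay upstream of LHY, PRR7, PRR5, GI and LUX in both replicates, and upstream of CCA1, PRR9 and ELF4 in replicate 2 alone. TOC1 and ELF3 had no peak within 2 kb in any of the 5 lists. SCL28 had peaks at a single clock gene, PRR9, in both replicates. The sequences of the 5 AtSMOS1 sites found in both replicates, and of the SCL28 site, are printed here because the values below refer to them. Each is the 200 bp centred on the summit of a replicate 1 peak, read from the RefSeq TAIR10.1 genome on the plus strand, 5′ to 3′, with exact matches to known clock motifs or to the SCL28/AtSMOS1 motif of the study in capitals on either strand. None of the 6 windows touches an exon of a protein-coding gene.

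LHY, AtSMOS1, chr1:38070-38269, no capitals: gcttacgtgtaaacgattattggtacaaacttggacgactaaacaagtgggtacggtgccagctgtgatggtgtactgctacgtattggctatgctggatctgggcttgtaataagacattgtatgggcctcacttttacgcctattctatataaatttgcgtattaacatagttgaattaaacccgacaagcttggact
PRR7, AtSMOS1, chr5:642289-642488, no capitals: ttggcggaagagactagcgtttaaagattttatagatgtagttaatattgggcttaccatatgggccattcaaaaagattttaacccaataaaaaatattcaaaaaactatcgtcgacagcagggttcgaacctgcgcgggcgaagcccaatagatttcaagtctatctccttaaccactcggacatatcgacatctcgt
PRR5, AtSMOS1, chr5:8359705-8359904, evening element then G-box in capitals: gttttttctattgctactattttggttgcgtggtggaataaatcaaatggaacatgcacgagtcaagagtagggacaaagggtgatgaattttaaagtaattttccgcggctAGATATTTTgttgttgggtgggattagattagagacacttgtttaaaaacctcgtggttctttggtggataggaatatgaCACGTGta
GI, AtSMOS1, chr1:8060877-8061076, evening elements in capitals: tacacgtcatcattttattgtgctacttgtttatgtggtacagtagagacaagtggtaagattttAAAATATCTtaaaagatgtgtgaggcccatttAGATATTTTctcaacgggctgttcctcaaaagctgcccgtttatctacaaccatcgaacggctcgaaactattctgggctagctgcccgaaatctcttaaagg
LUX, AtSMOS1, chr3:17182603-17182802, LUX-binding site in capitals: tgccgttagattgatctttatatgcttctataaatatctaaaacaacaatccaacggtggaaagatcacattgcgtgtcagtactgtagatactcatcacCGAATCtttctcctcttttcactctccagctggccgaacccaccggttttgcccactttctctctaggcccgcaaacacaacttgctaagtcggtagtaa
PRR9, SCL28, chr2:19231584-19231783, SCL28/AtSMOS1 motif in capitals: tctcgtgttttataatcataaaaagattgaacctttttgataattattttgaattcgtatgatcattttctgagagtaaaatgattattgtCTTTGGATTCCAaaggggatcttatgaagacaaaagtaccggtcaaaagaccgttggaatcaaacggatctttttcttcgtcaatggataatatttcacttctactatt

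The lists held 488 and 396 SCL28 peaks in replicates 1 and 2, 5438 and 6934 AtSMOS1 peaks, and 5695 input peaks on chromosomes 1 to 5. Fold enrichment is the ratio at a peak's summit over the local background that the authors' caller estimated, and its median per list was 4.00 and 4.50 for SCL28, 3.65 and 3.34 for AtSMOS1, and 3.72 for the input. The lists hold no read counts, and the mapped reads that the study states for the ChIP libraries were not used here. Inside both replicate 2 lists the peaks bear the name of the other protein, but 90.9% of the peaks in the second SCL28 list shared bases with the first, and the lists were used as labelled. The input list holds peaks too. The peak-calling command that the study states takes the input as control, so a ChIP peak so called is enrichment over total chromatin. That command asks for broad peaks, whereas the lists have the layout for narrow peaks, so its use for these lists is not certain. The control of the input list is not given, so its fold enrichment may not be the same measure as that of the ChIP lists.

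AtSMOS1 replicate 1 had a peak within 2 kb of 5 of the 10 clock genes, where 24.0% of all genes had one (exact 95% confidence interval, CI, 23.5 to 24.5%, counting error only). In replicate 2 the count was 8 of 10, against 30.3% of all genes (CI 29.8 to 30.8%). The 5 genes of replicate 1 were all among the 8 of replicate 2, and 20.7% of all genes had a peak in both lists. SCL28 had a peak at 1 of 10 clock genes in each replicate, against 2.71% and 2.27% of all genes, and 2.06% of genes had one in both. The input had a peak at 1 of 10, against 26.7%. The clock genes are long, with a median of 3753 bp against 1807 bp for all genes, so a window around the whole gene covers more sequence for them. With a window of equal length for each gene, a peak within 2 kb of the transcription start site (TSS) on either side, AtSMOS1 marked 5 and 8 of the clock genes, and 18.7% and 23.9% of all genes. By nearest gene, fewer were marked: 1 of the 10 clock genes was the nearest gene of a peak in AtSMOS1 replicate 1 and 4 in replicate 2. In each SCL28 list 0 were. The share of all genes by this assignment is not given here. These counts are given as a description, without a test.

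**Figure D1:**
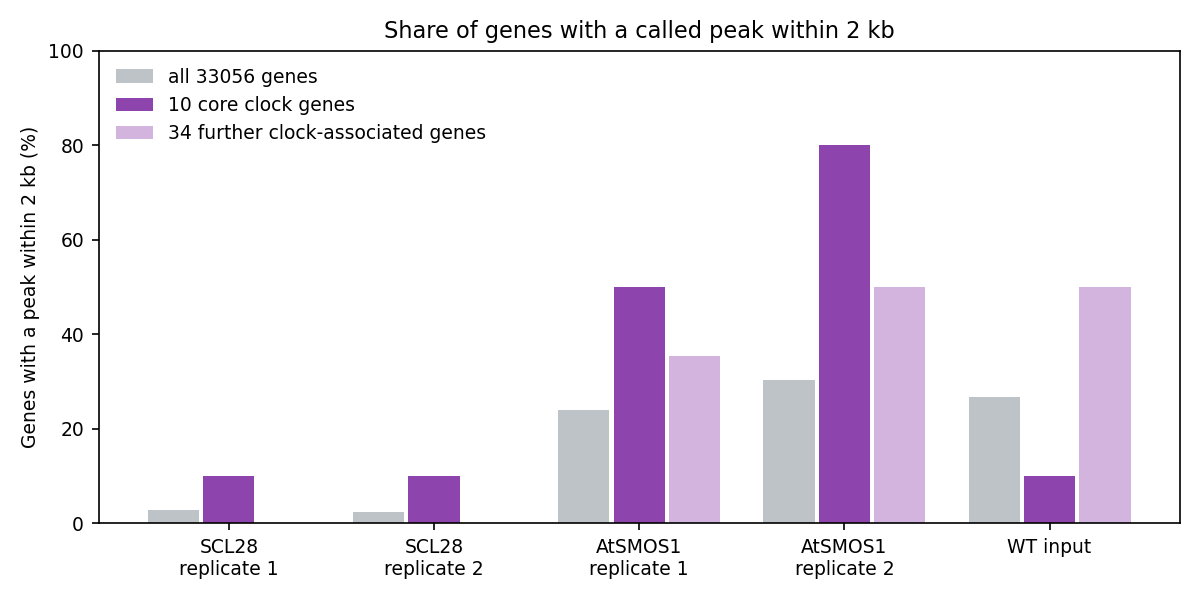
Share of genes (%) with a called peak within 2 kb, for each of the 5 lists, as bars for all 33056 genes, the 10 core clock genes and 34 further clock-associated genes. The core clock bars reach 50% and 80% for AtSMOS1 (5 and 8 of 10 genes) and stand for 1 gene in the SCL28 and input lists.

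All 6 AtSMOS1 peaks of replicate 1 and all 8 of replicate 2 at clock genes had their summit upstream of the TSS. Over all genes, 46.6% and 45.8% of gene and peak pairs within 2 kb were of this kind, and the rest lay inside or downstream of the gene. None of these 14 peaks shared a base with an input peak, which is near the background, since 0.497% and 0.534% of all AtSMOS1 peaks did. Where the input is the control, as in the command the study states, the caller disfavours positions that are high in the input. This count therefore cannot show that the clock gene peaks are free of input signal. The median distance from summit to TSS was 349 bp in replicate 1 and 364 bp in replicate 2. The peak just outside the 2 kb window was an AtSMOS1 peak of replicate 2, 2168 bp from GI, with a fold enrichment of 2.18, and the most distant AtSMOS1 peak inside it was that of replicate 1 at 1192 bp from PRR5.

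**Figure D2:**
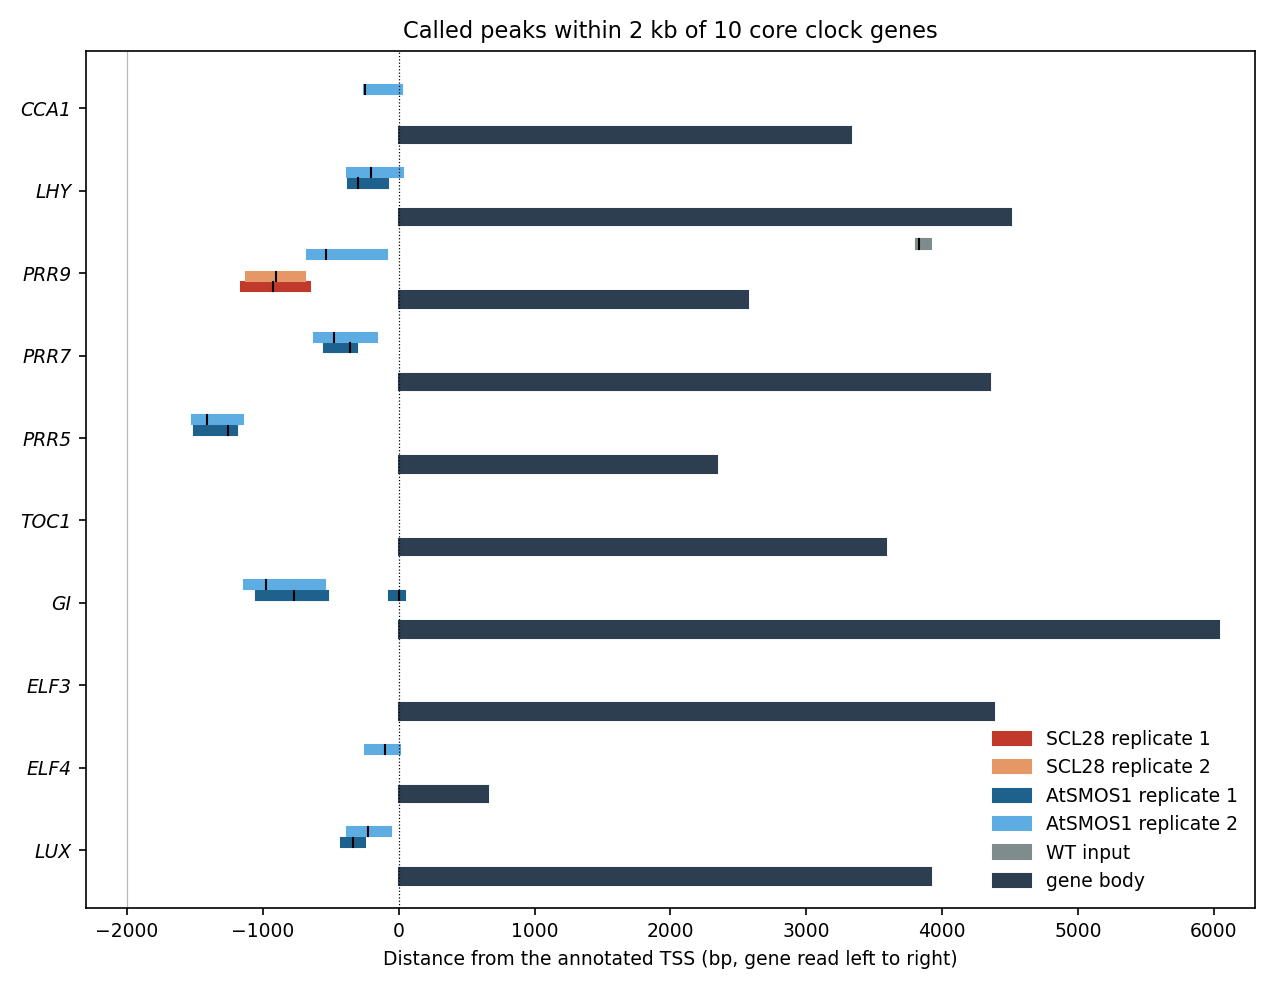
Called peaks within 2 kb of each clock gene, drawn to scale against distance from the TSS in bp, with each gene read left to right, the gene body as a dark bar and the summit as a black line. The AtSMOS1 bars lie left of or across the TSS at 8 genes, the SCL28 bars are at PRR9, the input bar lies beyond the PRR9 gene, and TOC1 and ELF3 have none.

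Of the morning pair, LHY carried the strongest AtSMOS1 peak of the clock genes in both replicates, in replicate 2 by a small margin over GI. Its fold enrichment was 5.76 in replicate 1 and 4.56 in replicate 2 (mean 5.16 ± 0.847, SD, n = 2), with −log10 q values of 9.89 and 11.1. The replicate 1 peak stood at the 94.7th percentile of its list by fold enrichment and the replicate 2 peak at the 85.9th. The peaks covered chr1:37951-38245 and chr1:37843-38249, with summits 299 and 205 bp upstream of the TSS, in the 572 bp between LHY and the 3′ end of UMAMIT28 (AT1G01070), a gene of the UMAMIT transporter family read in the same direction. The replicate 1 summit was 274 bp from UMAMIT28 and so slightly nearer to it than to the LHY start.

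CCA1 differed from LHY in these lists. Its promoter had a peak in replicate 2 only, at chr2:19245332-19245616, with a fold enrichment of 2.32 and a −log10 q of 2.37. This was the weakest AtSMOS1 peak at any of the 10 genes and stood at the 4.36th percentile of its list. The summit was 250 bp upstream of the TSS and 200 bp past the 3′ end of PSI-P (AT2G46820), and the peak ran across the TSS. A stronger AtSMOS1 peak lay outside the window in both replicates, 3128 and 3045 bp upstream of the TSS with fold enrichments of 6.48 and 4.45, where AT2G46810 is the nearest gene. The difference between CCA1 and LHY was not tested, since the lists give no reads for positions where no peak was called.

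Among the pseudo-response regulators, PRR7 and PRR5 had AtSMOS1 peaks in both replicates. At PRR7 the fold enrichment was 4.59 and 3.01 (mean 3.80 ± 1.12, SD, n = 2), so that it stood at the 80.9th percentile of the replicate 1 list and at the 32.4th of replicate 2. The PRR7 peaks, at chr5:642339-642581 and chr5:642191-642651, had summits 359 and 477 bp upstream of the TSS and are not at this gene alone. They cover a tRNA gene (AT5G02815, 82 bp), and the summits were 165 and 47 bp from the start of RHL2 (AT5G02820), which is transcribed away from PRR7 and encodes a subunit of the topoisomerase VI that plants need for endoreduplication. The peaks lie mostly in the 523 bp between both genes and run 28 and 98 bp into RHL2.

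At PRR5 the fold enrichment was 4.44 and 3.30 (mean 3.87 ± 0.808, SD, n = 2), with −log10 q values of 7.79 and 6.95. These peaks, at chr5:8359738-8360051 and chr5:8359696-8360066, were the farthest from a clock gene, with summits 1259 and 1412 bp upstream. They overlap a long non-coding RNA gene (AT5G03755), and the nearest protein-coding gene is PRR5 itself. TOC1, the last of the series to be expressed, had its closest AtSMOS1 peaks 7667 and 7689 bp away.

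PRR9 was the clock gene with SCL28 peaks. The fold enrichment there was 7.36 in replicate 1 and 5.98 in replicate 2 (mean 6.67 ± 0.974, SD, n = 2), both above the median of their lists, and the −log10 q values were 47.8 and 33.7. By fold enrichment the peaks ranked 65 of 488 and 113 of 396. They covered chr2:19231446-19231952 and chr2:19231481-19231916, with summits 923 and 901 bp upstream of the PRR9 TSS. Both summits were nearer to the 3′ end of the preceding gene AT2G46780, at 145 and 167 bp, and the peaks ran 94 and 59 bp into it, so that assignment to the nearest gene gives AT2G46780 and not PRR9. Among the other 9 genes, the SCL28 peaks closest to LHY lay 6062 and 6111 bp away and those closest to CCA1 were these same PRR9 peaks, since both genes lie in one part of chromosome 2.

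AtSMOS1 was placed differently at PRR9. Replicate 1 had no peak within 2 kb, and its closest one was 3574 bp from the SCL28 peak. Replicate 2 had a peak at chr2:19231933-19232518 with a fold enrichment of 2.75, a −log10 q of 4.49 and a place at the 19.0th percentile of its list. Its summit, 535 bp upstream of the TSS, was 388 bp from the SCL28 summit of replicate 1 and 366 bp from that of replicate 2. At 533 bp from this summit, AT2G46780 was slightly nearer than PRR9. The peak shared 20 bp with the SCL28 peak of replicate 1 and missed that of replicate 2 by 17 bp. Higher AtSMOS1 peaks lay outside the window, where AT2G46780 is also the nearest gene. Overlapping peaks 4957 and 4845 bp upstream of the TSS in replicates 1 and 2 had fold enrichments of 3.78 and 3.95. Replicate 2 had another 3422 bp upstream, at 4.10. The input peak near PRR9 was elsewhere, 1259 bp beyond the 3′ end and inside ZAT (AT2G46800), a zinc transporter gene, with a fold enrichment of 3.47.

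**Figure D3:**
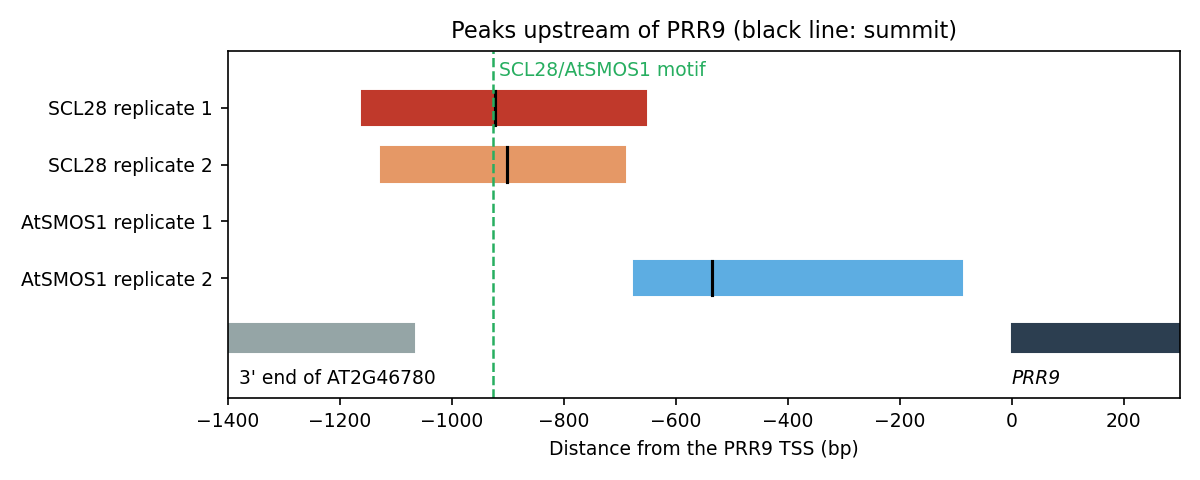
Region upstream of PRR9, as distance from its TSS in bp, with the peaks of each ChIP list as bars and their summits as black lines. Both SCL28 summits (−923 and −901 bp) lie beside the match to the SCL28/AtSMOS1 motif (dashed line), next to the end of AT2G46780. The AtSMOS1 replicate 2 summit lies nearer to PRR9 than the SCL28 summits do, at −535 bp.

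GI, the evening gene with the longest transcribed region of the 10, had 2 AtSMOS1 peaks in replicate 1 and 1 in replicate 2. The upstream peak had a fold enrichment of 4.11 in replicate 1 and 4.49 in replicate 2 (mean 4.30 ± 0.265, SD, n = 2) and was the only one of the 5 shared sites that was higher in replicate 2. It covered chr1:8060704-8061233 and chr1:8060615-8061206, with summits 774 and 977 bp upstream of the TSS, and GI was the nearest gene in both lists. The next gene upstream, PAB3 (AT1G22760), ends 2690 bp from the GI start. The second peak of replicate 1, at chr1:8061683-8061793, was 111 bp wide, with its summit 1 bp before the TSS and a fold enrichment of 3.47, and replicate 2 had no counterpart.

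In the evening complex, LUX had AtSMOS1 peaks in both replicates, with fold enrichments of 3.46 and 3.23 (mean 3.34 ± 0.160, SD, n = 2) and −log10 q values of 4.28 and 6.92. These values were below the list medians of 3.65 and 3.34. The peaks, at chr3:17182618-17182796 and chr3:17182663-17182981, had summits 339 and 229 bp upstream of LUX, in a region of 481 bp shared with the divergent gene AT3G46630, whose start was 143 and 253 bp from them. Higher AtSMOS1 peaks lay outside the window in both replicates, at 4628 and 4527 bp upstream, with fold enrichments of 6.77 and 5.45. The gene nearest to them is MIR5651 (AT3G07515). A further pair, at 2912 and 2801 bp upstream with 4.21 and 4.05, was nearest to RDUF1 (AT3G46620).

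ELF4 had a peak in replicate 2 only, at chr2:16734941-16735201, with a summit 100 bp upstream of the TSS, a fold enrichment of 3.36, a −log10 q of 6.34 and ELF4 as the nearest gene. It was the highest of the 3 peaks found in replicate 2 alone, and close to the median of its list. ELF3, the scaffold of the complex, had no peak nearby, the closest AtSMOS1 peaks being 58920 and 7393 bp away.

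**Figure D4:**
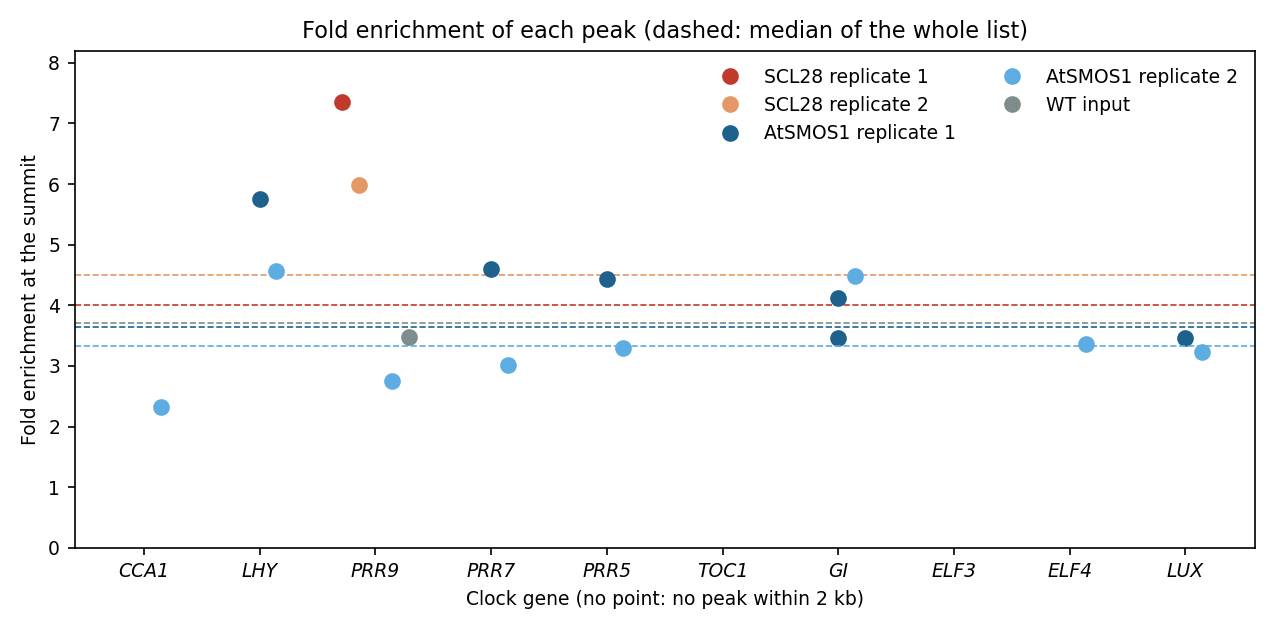
Fold enrichment at the summit of every peak within 2 kb of each clock gene (vertical axis, ratio, from 0), by list, with the median of each whole list as a dashed line of the same colour. AtSMOS1 points run from 2.32 at CCA1 to 5.76 at LHY, and the SCL28 points at PRR9 are 7.36 and 5.98.

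The medians over the clock gene peaks were 4.28 (range 3.46 to 5.76) for AtSMOS1 replicate 1 and 3.27 (range 2.32 to 4.56) for replicate 2, against 3.65 and 3.34 over the whole lists. Replicate 1 was thus above its list and replicate 2 about level with its own. At the 5 shared genes the ratio of replicate 1 to replicate 2 had a median of 1.26, while over all 4415 overlapping pairs it was 1.02 with quartiles of 0.875 and 1.18. The 3 genes marked in replicate 2 alone had fold enrichments of 2.32, 2.75 and 3.36. Over that whole list, the 2697 peaks without a counterpart in replicate 1 had a median of 2.97, and the 4237 with one had 3.73.

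The summits of the shared sites were 94 bp apart at LHY, 118 bp at PRR7, 153 bp at PRR5, 203 bp at GI and 110 bp at LUX, with a median of 118 bp. Over all 4415 overlapping AtSMOS1 pairs the median was 50 bp and the quartiles were 23 and 91 bp, so that each of the 5 gaps exceeded the upper quartile. Peaks at the clock genes were also wider, with medians of 269 and 389 bp against 197 and 286 bp over the lists, and the part of width in these gaps was not tested. When the midpoint of the peak was used, the medians were 52 bp at the clock genes and 39 bp over all pairs. The SCL28 summits at PRR9 were 22 bp apart, equal to the median over 360 SCL28 pairs.

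**Figure D5:**
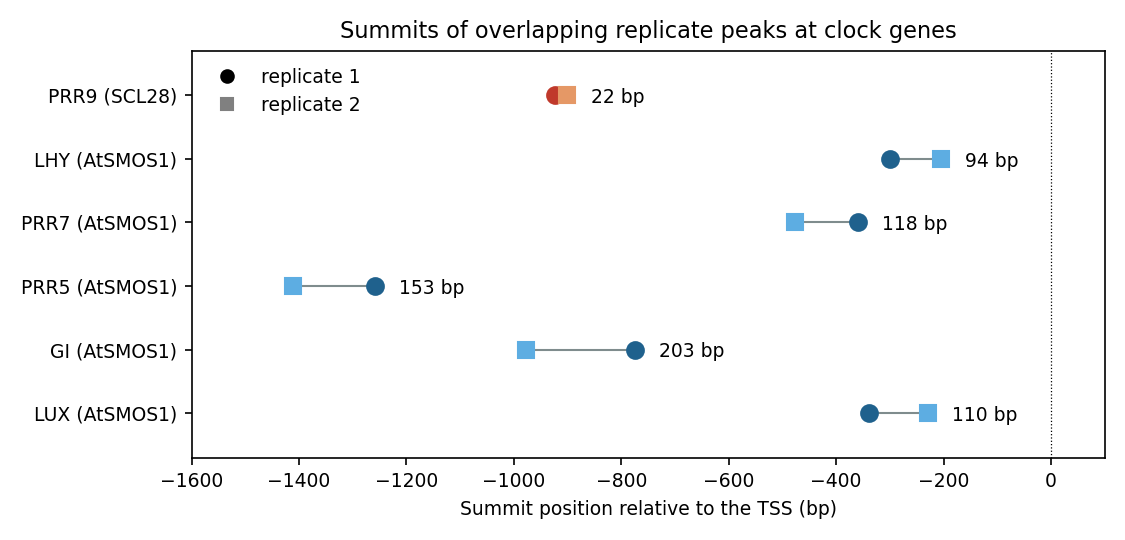
Summit positions relative to the TSS (bp) in replicate 1 (circles) and replicate 2 (squares) for the sites where the peaks of both replicates overlap. The gap is 22 bp for SCL28 at PRR9 and between 94 and 203 bp for AtSMOS1 at the other 5 genes.

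The base composition of the sites was measured because the rule did not use it. In the 200 bp at the summits, the median GC content was 40.8% for the 6 AtSMOS1 windows of replicate 1 (range 38.0 to 43.5%) and 42.0% for the 8 of replicate 2 (range 31.0 to 46.0%), against 35.0% in both whole lists. All 6 windows of replicate 1 were at or above 38.0%, the upper quartile of the list. The SCL28 windows at PRR9 had 30.5% and 29.0%, against medians of 33.5% and 34.0%. The part of GC content in where peaks were called was not tested.

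Short clock motifs were searched as exact matches on both strands, and a match is a description of the letters and not of binding. The evening element (AAAATATCT), through which CCA1, LHY and related factors act, was present at the summit windows of GI and PRR5 in replicate 1, as printed above. At GI there were 2 copies, centred 31 and 1 bp from the summit, and at PRR5 1 copy at 16 bp. The element was in 2 of 6 clock gene windows of that list and in 2.19% of all its windows, but in 0 of 8 of replicate 2, whose summits are displaced, and 2.06% of that list. In the 1 kb upstream of the TSS, 5 of 10 clock genes had it (PRR5, TOC1, GI, ELF4 and LUX), compared with 7.24% of 27443 protein-coding genes. TOC1, with no AtSMOS1 peak, thus had a copy, 147 bp from its TSS, and LHY and PRR7, with AtSMOS1 peaks, had none.

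The LUX-binding site (GATACG or GATTCG) was centred 2 bp from the LUX summit of replicate 1, and in replicate 2 it was 2 bp from the GI summit, 11 bp from that of ELF4 and 62 bp from that of PRR7. It was in 1 of 6 and 3 of 8 clock gene windows, against 10.4% and 10.7% of all windows, and in 8 of 10 clock promoters of 1 kb, against 39.8% of genes. The G-box (CACGTG), a site of bZIP and bHLH factors found in many light-regulated promoters, was in the PRR5 window of replicate 1 (94 bp from the summit) and in the CCA1, PRR5 and LUX windows of replicate 2, against 14.0% and 15.0% of all windows. It was in 5 of 10 clock promoters and 14.8% of all promoters. The CCA1-binding site (AAAAATCT) was in no clock gene window, against 3.99% and 3.75% of all AtSMOS1 windows, and in 3 of 10 clock promoters (LHY, PRR9 and PRR5), against 21.1%. No match of one motif shared a base with another in the printed windows.

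The SCL28/AtSMOS1 motif is a sequence of 12 bp that the study derived from the common targets of both proteins. Only the summit windows and the 1 kb upstream of the TSS were searched, and there it was found at 1 of the 10 clock genes. It lay under the SCL28 peaks of PRR9 at chr2:19231675-19231686, 927 bp upstream of the TSS, with its middle 4 bp from the SCL28 summit of replicate 1 and 26 bp from that of replicate 2. The motif was in 20.9% and 25.3% of all SCL28 windows, but in 1.05% and 0.923% of AtSMOS1 windows and 0.0702% of input windows. None of the 14 AtSMOS1 windows at clock genes held it, and 0.915% of all promoters of 1 kb did. Among all SCL28 peaks without an overlapping AtSMOS1 peak of the same replicate, 22.1% (CI 16.5 to 28.5%) and 26.0% (CI 18.7 to 34.3%) held the motif. Among those with one, 20.1% (CI 15.6 to 25.2%) and 24.9% (CI 19.8 to 30.6%) did, and the difference was not tested. The study used a motif search over its own peak sets and reports the motif as far rarer outside the common targets. Exact matches in 200 bp, split by overlap within 1 replicate, are a different measure.

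Genes that work beside the core clock were taken from a list of 34. It includes RVE and LNK factors (some of which activate evening genes), F-box light receptors, and outputs of the clock. None of the 34 genes had an SCL28 peak in this window. AtSMOS1 had peaks at 12 of 34 in replicate 1 and 17 of 34 in replicate 2, with 11 genes in both, 1 in replicate 1 alone, 6 in replicate 2 alone and 16 in neither. These shares were closer to the background of 24.0% and 30.3% than those of the core genes. The input had peaks at 17 of the 34 genes, against 26.7% of all genes.

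The 11 genes marked in both AtSMOS1 lists were LNK2 (AT3G54500), LNK3 (AT3G12320), LNK4 (AT5G06980), RVE7 (AT1G18330), CHE (AT5G08330), TIC (AT3G22380), JMJ30 (AT3G20810), EFL4 (AT1G17455), SRR1 (AT5G59560), GRP7 (AT2G21660) and CDF1 (AT5G62430). LNK4 had fold enrichments of 4.98 and 5.96, with both summits just inside the gene at 207 and 203 bp from the TSS. LNK2 had 3.83 and 3.78, at 23 and 79 bp upstream, and LNK3 had 3.18 in each replicate, at 150 and 9 bp upstream. CHE, a TCP factor that represses CCA1, had its highest peaks 1327 and 1285 bp upstream, at 5.42 and 4.69. The gene nearest to these peaks was AT5G08320, at 255 and 297 bp. CHE had 2 further peaks in replicate 1 and 3 in replicate 2. CDF1, a DOF factor of flowering time that GI and FKF1 remove, had peaks of 3.78 and 5.04 at 344 and 360 bp upstream, and a second pair beyond its 3′ end. TIC, needed for the clock to keep its amplitude, had peaks of 4.12 and 3.73 at 640 and 417 bp upstream. GRP7, a clock-controlled RNA-binding protein, had 3.92 and 3.13 at 15 and 7 bp upstream. RVE7 had 2.95 and 2.35 at its start, while those of JMJ30 (2.92 and 3.59), EFL4 (4.02 and 3.36) and SRR1 (2.63 and 2.49) lay downstream of the gene. The genes nearest to these downstream summits were AT3G20820 for JMJ30, TRFL3 (AT1G17460) for EFL4 and RDUF2 (AT5G59550) for SRR1. Of the AtSMOS1 summits around the 34 genes, 6 of 16 in replicate 1 and 11 of 23 in replicate 2 were upstream of the TSS, whereas all 14 at the core clock genes were. The input also had peaks within 2 kb of LNK2, CHE, TIC, JMJ30, SRR1, GRP7 and CDF1. Their highest fold enrichments ran from 3.27 at TIC to 9.91 at JMJ30. LNK3, LNK4, RVE7 and EFL4 had no input peak in this window.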

How the data were processed

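ChIP-Seq of SCL28-GFP and AtSMOS1-GFP seedlings (2 replicates each) and total chromatin of WT (1 input) was analyzed from 1 list of peaks per sample. Per the labels, the authors processed reads with Trimmomatic 0.38, Bowtie2 2.3.5 and SAMtools 1.9 and called peaks with MACS2 2.2.7.1 on TAIR10, per sample, at a q value cutoff of 0.05. Sources differ on the fragment size and on broad or sharp peaks, and the lists have the layout for narrow peaks. The command that the study states takes the input as the control of a ChIP sample. The control used for the input list itself is not given in the sources used here. The fold enrichment (ratio), the −log10 p and −log10 q values and the score, which is the −log10 q multiplied and cut to a whole number, are those of the authors' caller as deposited, and the score was not used.

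Peaks on organelle genomes were left out (1, 1, 1, 0 and 184 in SCL28 replicates 1 and 2, AtSMOS1 replicates 1 and 2 and the input). A peak was listed when any base lay within 2 kb of a gene of the RefSeq TAIR10.1 annotation (33056 genes, with 4843 pseudogenes not used). Overlap meant 1 shared bp. Motifs were searched in 200 bp at summits and 1 kb upstream of genes. Shares have exact (Clopper-Pearson) 95% intervals, for counting error only. No test was made, because lists hold no counts, with 2 lists per protein and 1 input. The code, in python 3.11.15 with numpy 2.4.6 and scipy 1.17.1 (figures by matplotlib 3.10.9), was tested on simulated data.

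The members and the gene and motif lists were chosen with earlier results of these data known. All 10 clock genes were named with every peak, neighbours where nearest to a peak, and further genes where both AtSMOS1 lists or any SCL28 list had a peak. The alternatives were windows of 1 and 5 kb, summit or midpoint for peak, the TSS as anchor, a −log10 q of at least 5, peaks overlapping the input left out, 50% overlap, protein-coding genes alone and each replicate left out.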

Additional observations from a re-analysis of the deposited data

How the results depend on the processing

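Of 143 alternative values for 37 results, 115 stayed within a ratio of 1.5 to the main value, up or down, and 28 did not. No paired analysis was possible because no result comes from a test, and replicate lists share only a number. SCL28 at PRR9 stayed at 1 gene without either replicate. With either replicate left out, the count of clock genes with AtSMOS1 peaks ranged from 5 to 8. With a −log10 q of at least 5, clock genes with AtSMOS1 peaks fell to 4 in replicate 1, 5 in replicate 2 and 3 in both replicates. Of all 33056 genes, 3530 then had a peak in AtSMOS1 replicate 1, 7017 in AtSMOS1 replicate 2 and 4234 in the input. The number of all genes with a peak in both replicates at this cutoff was not computed. Overlapping AtSMOS1 peaks at the clock genes fell to 3, and further clock-associated genes in AtSMOS1 replicate 1 to 5. A window of 5 kb gave 1674 and 1421 genes for SCL28, 13142 and 15895 for AtSMOS1 and 14699 for the input, 1 further clock-associated gene for SCL28 in each replicate, and 19 for AtSMOS1 replicate 1. The highest peak of LUX was then 6.77. A summit within 2 kb upstream of the TSS, chosen after seeing the data, gave 398, 337, 4187, 5281 and 3336 genes for SCL28, AtSMOS1 and the input. The input peak of PRR9 was lost, leaving 0 clock genes, with a window of 1 kb, a −log10 q of at least 5, 2 kb around the TSS or the upstream summit. Among protein-coding genes alone, clock genes nearest to a peak of AtSMOS1 replicate 1 numbered 2 (GI and PRR5) in place of 1, and midpoints gave a median gap of 52 bp between replicates. PRR7 had a fold enrichment of 3.01 in replicate 2 in place of 4.59. The lists hold no reads outside called peaks, so a gene without a peak cannot be told apart from one below the caller's cutoff.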
